A study of Homo sapiens with 22 samples.

Results

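The data described here are the responses to hypoxia of the MYCN-low, substrate-adherent neuroblastoma cell lines of the series. They were chosen by name from the cell line labels and comprise ACN, SHEP-2, GI-ME-N, SHEP21N without MYCN overexpression and SHEP21N with MYCN overexpression. Each line gave 1 array after culture in 1% O2 (hypoxia) and 1 array in 20% O2 (normoxia), both for 18 hours, so that 5 pairs and 10 of the 22 arrays were used. The SHEP21N cells labelled without overexpression were grown with tetracycline at 50 ng/mL, which switches off their MYCN transgene, and those labelled with overexpression were grown without it. ACN and GI-ME-N came from a cell line collection and the 3 SHEP lines from a laboratory. As background, SHEP lines are related to each other, since they go back to the SK-N-SH line. The remaining 12 arrays belong to 6 other lines (SK-N-SH, LAN-1, IMR-32, GI-LI-N, SK-N-F1 and SK-N-BE2(C)) and served for comparison. No line had a second array in a condition, so the spread in every test comes from differences between cell lines, with the noise of single arrays included.

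Cells short of oxygen stabilise the hypoxia-inducible factors, which bind a short DNA motif and raise the expression of genes for glucose uptake and glycolysis, blood vessel growth, collagen modification and the restraint of cell growth. Prolyl hydroxylases mark these factors for degradation when oxygen is present. Neuroblastoma lines occur in a neuroblastic form with noradrenergic traits and in a substrate-adherent form with mesenchymal traits, and the latter rarely carries amplified MYCN.

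The description of these lines as MYCN-low and substrate-adherent was first set beside marker genes. The labels name MYCN for the SHEP21N cells only and give no growth form. Because the lines were chosen with earlier results of these data known, the marker values are a description and not a check. They are MAS5 signals, a brightness per probeset on a linear scale that the authors had scaled to the same average on each array. The brighter MYCN probeset did not exceed 55.3 on any of the 10 arrays, whereas the 12 other arrays lay between 5788 and 67627. This held also for the arrays labelled with MYCN overexpression. At a second probeset their hypoxic array had a signal of 830.2 and their normoxic array of 13.7. Whether these probesets lie in the transgene is not given in the sources used here. YAP1 (2091 to 4473 against 36.5 to 248), FOSL1 (498 to 1886 against 7.03 to 77.2) and ANXA1 (4486 to 38398 against 3.02 to 1067), which are genes of mesenchymal cells, did not overlap between the 10 and the 12 arrays. Nor did CD44, LGALS1 and PRRX1. How many of all genes also lay apart was not counted, so this does not single these markers out. The other mesenchymal markers looked at did overlap. These were VIM (from 20292 against up to 35950), FN1 (1578 against 2462), S100A6 (5978 against 10170) and SNAI2 (1879 against 2183). The neuroblastic markers PHOX2A, STMN2 and ELAVL4 stayed at or below 166.4 on the 10 arrays and at or above 3367 on the others. GATA3 reached 3606 in GI-ME-N (others from 5907) and ISL1 reached 1114 in SHEP-2 (others from 3588). HAND2 reached 253 (others from 345), CHGA 197 (from 2084) and DBH 76.1 (from 348). TH overlapped fully, at 4 to 23.5 on the 10 arrays against 2.75 to 7202 on the others. ACN stood apart from the remaining lines: its GATA3 signals were 12.7 and 12.9, and its signals of the Schwann cell marker S100B were 5067 in normoxia and 4185 in hypoxia, against at most 132.7 in the other 4 lines. SOX10, another Schwann cell marker, had signals of 1288 and 462 in ACN. The part of these differences in the results below was not tested.

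The normoxic array of SHEP21N with overexpression differed from the rest in its control probesets. Its GAPDH signal near the 3' end was 67.3 times that near the 5' end and the same 3'/5' ratio of ACTB was 94.0, whereas the ratios on the other 9 arrays were 0.939 to 1.37 for GAPDH and 1.18 to 5.05 for ACTB. The value of 5.05 came from the normoxic array of SHEP21N without overexpression. A high ratio means that little signal came from the 5' end of the transcript. Results are therefore given with all 5 pairs and, where a call or a size depended on this pair, also with the 4 other pairs.

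Hypoxia was compared with normoxia within each line to ask which genes these lines share in their response. The criteria were a limma fit with the cell line as a block (adjusted p under 0.05) and a plain count of genes that moved at least 1.5-fold the same way in all 5 pairs. The limma fit draws the spread of each gene toward that of genes of like signal. Each SE given below comes from that fit, not from the changes of the lines alone. Of 11386 genes tested, 2 rose past the limit of the fit (0.0176%), ANKRD37 and NDRG1, and none fell (0%). At an unadjusted p under 0.05, 304 genes were higher (2.67%) and 431 lower (3.79%). The methods' t-test, taken here as paired and without their selection of 2-fold probesets, gave 0 genes after Benjamini-Hochberg in either direction. By the count, 17 genes were at least 1.5-fold higher in all 5 pairs (0.149%) and 3 were at least 1.5-fold lower (0.0263%). In bulk RNA, a level that changes in every cell and a change in the number of cells that express the gene cannot be told apart.

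ANKRD37 encodes an ankyrin repeat protein and is a known target of hypoxia-inducible factor. Its signal went from 835 to 3138 in ACN, from 3039 to 16149 in SHEP-2, from 2282 to 6770.1 in GI-ME-N, from 794 to 3191 in SHEP21N without overexpression and from 757 to 2801 in SHEP21N with overexpression. It was thus higher in hypoxia in each line, and only SHEP-2 had more of it in normoxia than another line, SHEP21N with overexpression, had in hypoxia. The log2 changes lay between 1.33 in GI-ME-N and 2.5 in SHEP-2, with a mean of 1.96 ± 0.19 (SE, n = 5; adjusted p = 0.0146 in limma), which is a 3.89-fold rise. With the mean of both its probesets, of which the second is dim, the log2 change was 0.65 and the adjusted p 0.811.

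NDRG1, a stress-induced gene of growth restraint and differentiation, went from 2461 to 11550 in ACN, from 547 to 6862 in SHEP-2, from 4495 to 16668 in GI-ME-N, from 469 to 2246 in SHEP21N without overexpression and from 524 to 2039 in SHEP21N with overexpression. Every line had more in hypoxia, but the normoxic signals of ACN and GI-ME-N lay above the hypoxic ones of both SHEP21N pairs. The change in SHEP-2 (3.74) stood above those of the other lines (1.66 to 2.22), and the mean was 2.40 ± 0.27 (SE, n = 5; adjusted p = 0.0292 in limma), or 5.28-fold.

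With 1 line left out, the mean log2 change was 1.82 to 2.12 for ANKRD37 and 2.06 to 2.59 for NDRG1. Without ACN, SHEP-2 or SHEP21N without overexpression the fit called 0 genes higher, and without GI-ME-N it called ANKRD37 alone. Without SHEP21N with overexpression it called 9 genes higher of 11288 tested (0.0797%) and 1 lower (0.00886%). With the 3 SHEP lines averaged into 1, ANKRD37 was not called (1.80, adjusted p = 0.0651), and the 2 genes called were NDRG1 (2.19) and ADM (1.52), both with an adjusted p of 0.0306. The 9 genes higher without SHEP21N with overexpression were ANKRD37 and NDRG1 with DDIT4, HILPDA, VEGFA, ADM, BHLHE40, FAM162A and IGFBP3, and their adjusted p lay between 0.00544 and 0.0465. Without both SHEP21N pairs, 10 genes rose, among them TMEM45A (log2 change 2.15, adjusted p = 0.00316) and GBE1, the glycogen branching enzyme (1.07, adjusted p = 0.018). The 1 lower gene of the 4 pairs was TAF9B, a transcription factor subunit, with a log2 change of -1.47 (adjusted p = 0.0353). Its 5 probesets disagreed, however, with means between -1.29 and 1.57 over the 5 pairs, and the one at 1.57 was as bright and higher in all 5.

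**Figure D1:**
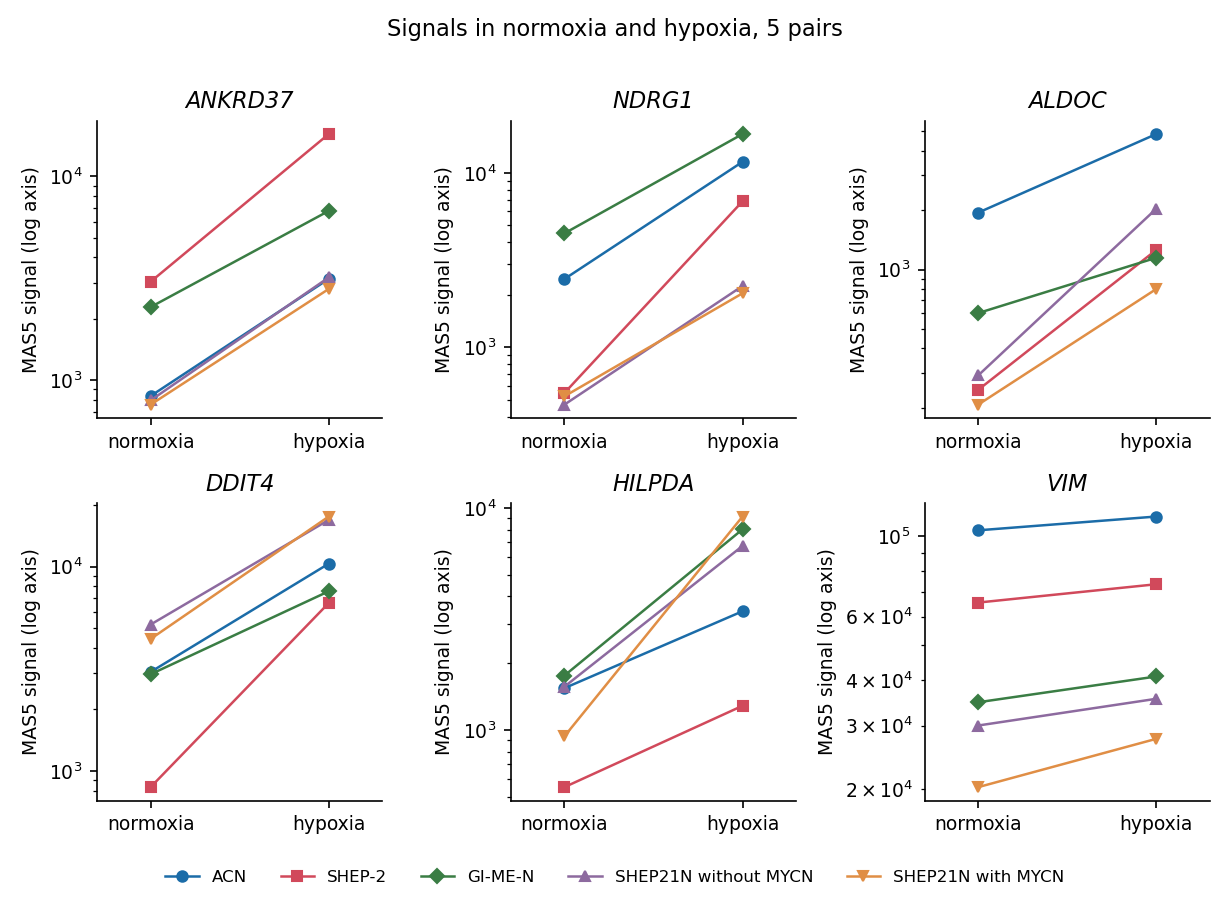
MAS5 signals (vertical log axes, arbitrary units) of 6 genes in normoxia and hypoxia, 1 line for each of the 5 pairs. ANKRD37, NDRG1, ALDOC, DDIT4 and HILPDA were higher in hypoxia in each pair, and VIM was nearly level, with a mean log2 change of 0.25.

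DDIT4, an inhibitor of mTORC1 signalling, just missed the limit with 5 pairs. Its signal went from 3049 to 10331 in ACN, from 833 to 6633 in SHEP-2, from 2971 to 7570.2 in GI-ME-N, from 5203 to 16917 in SHEP21N without overexpression and from 4423 to 17573 in SHEP21N with overexpression. All hypoxic signals were above all normoxic ones. The mean log2 change was 1.96 ± 0.24 (SE, n = 5; limma adjusted p = 0.0515), and with 4 pairs it was 1.90 (adjusted p = 0.0162). HILPDA, whose protein coats lipid droplets and inhibits their lipolysis, had changes from 1.12 in ACN to 3.51 in SHEP21N with overexpression and a mean of 1.99 ± 0.31 (SE, n = 5; limma adjusted p = 0.165). The largest of these came from the pair with the high control ratios, and without it the mean was 1.61 (adjusted p = 0.0112). A second HILPDA probeset of like signal had a mean of 1.34 and was higher in all 5 pairs.

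ALDOC, the aldolase of brain that splits fructose bisphosphate in glycolysis, went from 1940.2 to 4851 in ACN, from 246 to 1257 in SHEP-2, from 602 to 1147 in GI-ME-N, from 291 to 2031 in SHEP21N without overexpression and from 207 to 797 in SHEP21N with overexpression. ACN had more in normoxia than 3 of the other lines in hypoxia, but each line was higher in hypoxia. The mean log2 change was 1.87 ± 0.30 (SE, n = 5), which did not pass (limma adjusted p = 0.165 with 5 pairs and 0.0731 with 4). When all 22 arrays entered 1 fit, so that the other lines helped to estimate the spread, ALDOC passed with the same change (adjusted p = 0.0215).

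VIM, the intermediate filament of mesenchymal cells, was among the brightest genes on these arrays. Its signal went from 103801 to 113311 in ACN, from 65584 to 73686 in SHEP-2, from 34805 to 40998 in GI-ME-N, from 30020 to 35579 in SHEP21N without overexpression and from 20292 to 27588 in SHEP21N with overexpression. The lines differed more from each other than hypoxia differed from normoxia. The log2 changes, which are relative to the array median, ran from 0.0028 in GI-ME-N to 0.66 in SHEP21N with overexpression, with a mean of 0.25 ± 0.10 (SE, n = 5; limma adjusted p = 0.75) and of 0.14 without the latter (adjusted p = 0.763). VIM was higher in all 5 pairs, but so were 2.68% of the genes tested, and 6.24% were lower in all 5.

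The other genes at least 1.5-fold higher in all 5 pairs have several roles. STC1 is a secreted glycoprotein (mean log2 change 1.71), ADM the vasodilating peptide adrenomedullin (1.56) and EFNA3 a membrane-bound ephrin ligand (1.58). PFKFB4 sets the level of fructose 2,6-bisphosphate and thereby the pace of glycolysis (1.56). BHLHE40 is a transcriptional repressor (1.26), DEPP1 a FOXO target that responds to fasting (1.54), PNRC1 a nuclear receptor coregulator (1.07), RAB20 a small GTPase of endosomes (1.01) and PRR5L a partner of mTORC2 (0.94). ANKZF1, a factor of ribosome quality control, had a mean of 1.68, POFUT4, a fucosyltransferase formerly named FUT11, one of 1.05, and the non-coding RNA LINC01770 one of 1.09. None of these 12 passed limma with 5 pairs, where their adjusted p lay between 0.0959 and 0.75, while ADM and BHLHE40 rose with 4. EFNA3 stood just inside the 1.5-fold limit, with a lowest change of 0.59, and LOX just outside it, with 0.58. Of the 17 genes, 11 were also higher in all 6 other lines, against 3.57% of the genes tested, and 4 (NDRG1, DDIT4, ANKRD37 and HILPDA) were at least 2-fold higher in every pair.

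Both EFNA3 and DEPP1 include dim signals. EFNA3 had a signal of 18.5 in normoxic ACN and of 134.8 in hypoxic ACN, and DEPP1 had 6.67 and 20.3 there, against 225 to 1707 for DEPP1 in the other 4 lines. Such low signals are close to the background of the array.

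The 3 genes at least 1.5-fold lower in all pairs were CLCN5, CRYGC and ENPP2. CLCN5, a chloride and proton exchanger of endosomes, had log2 changes from -1.54 to -0.87 and a mean of -1.23 ± 0.26 (SE, n = 5; limma adjusted p = 0.318) at the probeset used. Its other probesets had means of -0.53 and 0.37, the latter higher in 4 of 5 pairs, and over all its probesets the mean was -0.57 (adjusted p = 0.811). CRYGC, a lens crystallin gene, and ENPP2, which encodes the lysophosphatidic acid-forming enzyme autotaxin, had their lowest values in GI-ME-N (-2.75 and -1.75), where the hypoxic signals were 18 and 6.17. In the other 4 lines their changes were -0.94 to -0.59.

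**Figure D2:**
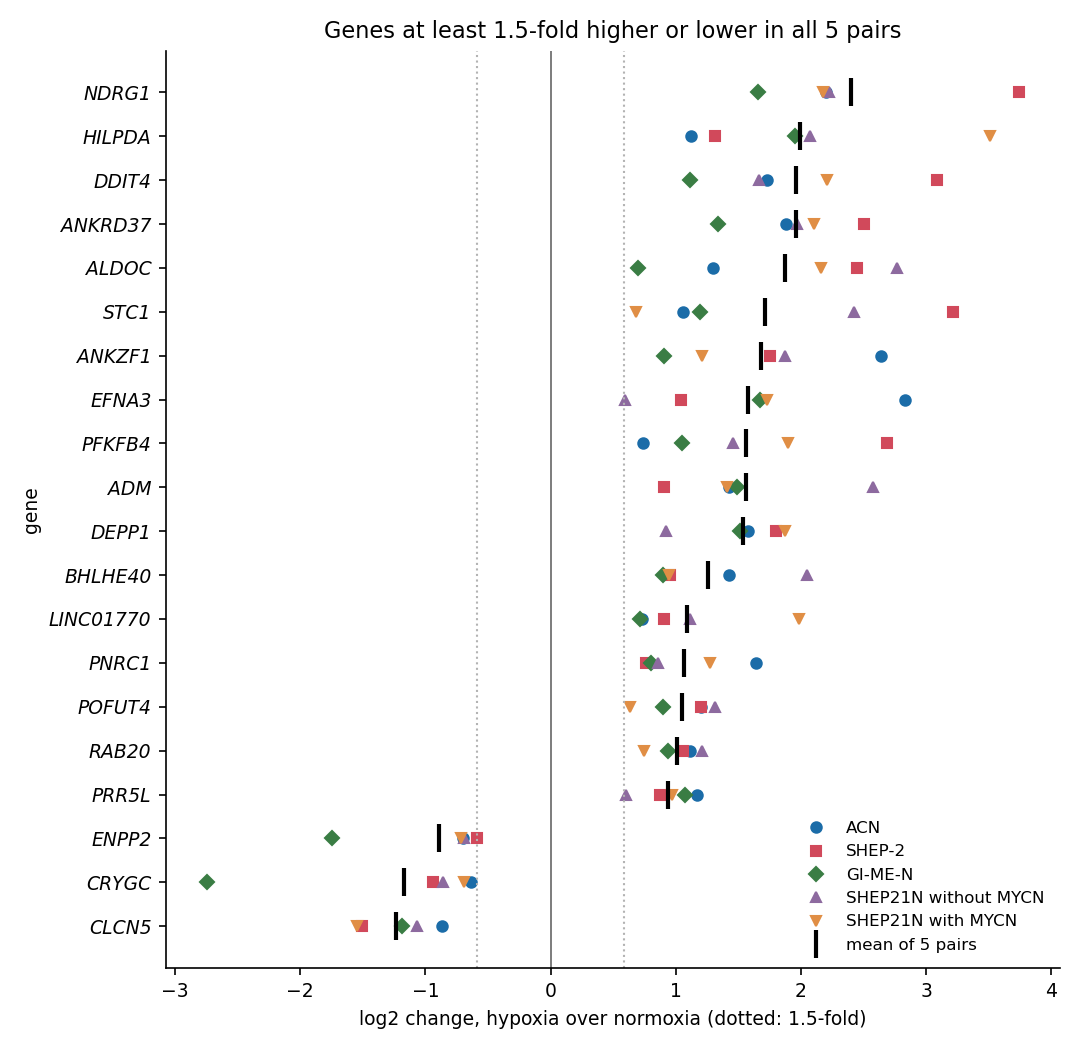
Log2 change in hypoxia over normoxia (horizontal axis) of the 20 genes that moved at least 1.5-fold the same way in all 5 pairs, 1 symbol for each pair and a bar for the mean. The dotted lines mark 1.5-fold; SHEP-2 had the highest value of NDRG1 (3.74) and GI-ME-N the lowest value of CRYGC (-2.75).

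The promoters of these genes were read from RefSeq (GRCh38.p14) as 250 bases before to 50 bases after the start, and searched on both strands for the letters ACGTG, the core that hypoxia-inducible factors bind. Promoters were found for 12 of the 17 higher genes, and 6 of the 12 (50.0%) held the letters, against 27.1% of the 9369 promoters of genes tested. These counts are a description of letters in a short window. The promoters of ANKRD37, ALDOC and DDIT4 are shown because their genes were more than 1.5-fold higher in each line and because they hold the letters, whereas those of ADM and PFKFB4 do not hold them in this window. Capitals mark ACGTG or its reverse complement CACGT, and CACGTG holds both, overlapping.
ANKRD37, chr4:185396591-185396890, plus strand: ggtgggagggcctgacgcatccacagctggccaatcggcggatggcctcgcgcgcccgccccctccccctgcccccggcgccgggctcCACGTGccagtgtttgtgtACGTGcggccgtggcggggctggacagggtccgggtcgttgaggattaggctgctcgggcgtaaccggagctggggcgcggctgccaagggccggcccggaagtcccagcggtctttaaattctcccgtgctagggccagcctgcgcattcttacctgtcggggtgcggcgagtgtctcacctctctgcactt
ALDOC, chr17:28576846-28577145, minus strand: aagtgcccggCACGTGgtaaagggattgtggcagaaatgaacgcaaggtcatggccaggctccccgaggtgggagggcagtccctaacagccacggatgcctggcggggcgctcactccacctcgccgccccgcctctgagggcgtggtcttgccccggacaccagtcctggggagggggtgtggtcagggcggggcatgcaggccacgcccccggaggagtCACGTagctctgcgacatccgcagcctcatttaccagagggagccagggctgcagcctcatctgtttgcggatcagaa
DDIT4, chr10:72273674-72273973, plus strand: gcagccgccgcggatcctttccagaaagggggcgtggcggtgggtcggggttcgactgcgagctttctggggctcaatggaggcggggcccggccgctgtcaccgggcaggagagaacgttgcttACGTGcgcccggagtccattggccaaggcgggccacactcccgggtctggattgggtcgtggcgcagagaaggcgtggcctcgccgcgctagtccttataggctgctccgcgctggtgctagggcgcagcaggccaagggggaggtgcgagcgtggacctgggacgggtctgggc
In ANKRD37 the letters occur 3 times, overlapping in CACGTG and once more 143 bases before the start. In ALDOC they also occur 3 times, the last 28 bases before the start, and in DDIT4 once, 125 bases before it.

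Genes were then followed in lists by function, each described by its counts and by its median in each pair. The median log2 change over all genes tested was -0.029 as the mean of the 5 pairs, but -0.23 in GI-ME-N and 0.088 in SHEP-2. With the values as deposited the medians of these lines were -0.00083 and -0.0055, and that of SHEP21N with overexpression was -0.18 instead of 0.042. List medians in this section are therefore given relative to the median of all genes in the same pair, as means of the 5 pairs. Without SHEP21N with overexpression those named below as above or below 0 in every pair moved by at most 0.078.

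Glucose transport and glycolysis had a relative median of 0.64 over the 5 pairs, from 0.42 in GI-ME-N to 0.89 in SHEP-2. Of 25 genes tested, 16 were higher in all 5 pairs, against 2.68% of all genes, and none was lower in all 5. None passed limma with 5 pairs, while 19 were higher at an unadjusted p under 0.05, against 2.67% of all genes. ENO2, a neuronal enolase, had a mean log2 change of 1.47, HK2, which phosphorylates glucose, 1.07 and the glucose transporter gene SLC2A3 0.97. TPI1, which interconverts triose phosphates, had 0.79 (limma adjusted p = 0.165) and the enolase gene ENO1 0.61 (adjusted p = 0.182). PFKFB3, a relative of PFKFB4, had a mean of 0.022 and UGP2, which makes UDP-glucose, -0.13. GPI and PFKL owed much of their means (0.98 and 0.93) to SHEP21N with overexpression, where they changed by 2.77 and 2.57, and had means of 0.53 and 0.52 without it.

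Genes of stress and growth restraint had a relative median of 0.78, from 0.59 in GI-ME-N to 1.33 in SHEP-2. Both called genes belong to this list, and both are among the genes that the study itself selected on these arrays. Of its 16 genes tested, 8 were higher in all 5 pairs, against 2.68% of all genes. MXI1, an antagonist of MYC, had a mean log2 change of 0.80, TXNIP, a brake on glucose uptake, 0.65, and the cell cycle inhibitor gene CDKN1A -0.056. Collagen hydroxylation and crosslinking had a relative median of 0.62, from 0.39 in GI-ME-N to 0.96 in ACN. Of its 10 genes tested, 5 were higher in all pairs, against 2.68% of all genes, and 0 passed limma. At an unadjusted p under 0.05, 7 were higher, against 2.67% of all genes. LOX, the lysyl oxidase, had a mean of 1.24 (limma adjusted p = 0.186), P4HA2, a collagen prolyl hydroxylase subunit, 0.94 (0.165) and LOXL2 0.73 (0.597). The collagen chains themselves had a relative median of 0.28.

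Secreted angiogenic factors included genes of either direction. The ADM signal went from 2479 to 6799.8 in ACN, from 4893 to 8589 in SHEP-2, from 3857 to 12737 in GI-ME-N, from 1351 to 8264 in SHEP21N without overexpression and from 1948 to 4459 in SHEP21N with overexpression. It rose with 4 pairs (limma adjusted p = 0.0237) and not with 5 (1.56, adjusted p = 0.0959), although each line was at least 1.5-fold higher in hypoxia. VEGFA, the main vessel growth factor, changed by 2.42 in ACN, 1.46 in SHEP-2, 1.23 in GI-ME-N, 1.71 in SHEP21N without overexpression and 0.42 in SHEP21N with overexpression, whose normoxic array had the high control ratios. It rose with 4 pairs (1.71, limma adjusted p = 0.0112) and not with 5 (1.45, adjusted p = 0.165). FGF2, another vessel growth factor, was lower in all 5 pairs (-0.53, adjusted p = 0.75). The relative median of the list was 0.32, from 0.034 in SHEP21N with overexpression to 0.57 in ACN.

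Among the genes of oxygen sensing, the prolyl hydroxylase genes EGLN1 (0.88) and EGLN3 (1.51) were higher in all 5 pairs, and the factor genes HIF1A (-0.080) and EPAS1 (-0.25) were near 0. None of the 10 genes tested passed limma with 5 pairs, and 2 were higher at an unadjusted p under 0.05, against 2.67% of all genes. BNIP3, which marks mitochondria for mitophagy, had a mean of 1.44 (limma adjusted p = 0.248). FAM162A, which encodes a mitochondrial protein, had 1.33 with 5 pairs and rose with 4 (1.46, adjusted p = 0.0465). IGFBP3, which binds insulin-like growth factors, changed by 1.25 in ACN, 1.47 in SHEP-2, 1.28 in GI-ME-N, 0.74 in SHEP21N without and 0.26 in SHEP21N with overexpression. It rose with 4 pairs (1.19, adjusted p = 0.0365). Of 17 Jumonji histone demethylase genes tested, 2 were higher in all 5 pairs, against 2.68% of all genes. These were KDM4B (1.17) and KDM3A (0.63), which did not pass. The mean change was below 0 for 7 of the 17, and the relative median of the list ran from -0.13 to 0.38.

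Of the other lists, ligands, receptors and binding proteins of insulin-like growth factors had a relative median of 0.41 (0.18 to 0.76), immediate early genes 0.19 (0.011 to 0.33) and lipid uptake and droplets 0.14 (0.012 to 0.29), each above 0 in all 5 pairs. The citric acid cycle (-0.18 to 0.070), the mitochondrial respiratory chain (-0.19 to 0.042), metallothioneins (-0.26 to 0.29), pH control (-0.19 to 0.59), chaperones (-0.30 to 0.20) and the interferon response (-0.10 to 0.28) lay on both sides of 0. Of 17 respiratory chain genes tested, 4 were lower in all 5 pairs, and none passed limma in either direction (0 higher and 2 lower at an unadjusted p under 0.05). Over all genes tested, 6.24% were lower in all 5 pairs and 3.79% lower at an unadjusted p under 0.05.

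Lists of cell growth lay below the median of all genes. DNA repair had a relative median of -0.28, mitosis of -0.11 and ribosome biogenesis of -0.19, each below 0 in all 5 pairs, and DNA replication was below 0 in 4 of 5 (-0.22). None of their genes passed limma in the 5 pairs, while 3 of 9 genes of DNA repair, 2 of 20 of mitosis, 3 of 13 of ribosome biogenesis and 4 of 20 of DNA replication were lower at an unadjusted p under 0.05, against 3.79% of all genes. PCNA, the sliding clamp of DNA polymerase, was lower in all 5 pairs by similar amounts (-0.65 to -0.27, mean -0.51 ± 0.11, SE, n = 5; limma adjusted p = 0.36). Mesenchymal cytoskeleton and surface (0.073) and mesenchymal transcription factors (-0.0038) had relative medians near 0. ZEB1, a repressor of epithelial genes, was lower in all 5 pairs (-0.40, limma adjusted p = 0.75), as were 6.24% of all genes. Its 2 other probesets had means of 0.10 and -0.21, and each was higher in 2 of the 5 pairs.

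The study itself selected 32 genes as hypoxia-responsive in these 11 lines (NB-hypo). They are not independent evidence of a direction, because they were chosen on these arrays. Some also belong to the lists above, such as NDRG1, DDIT4, ANKRD37, BHLHE40, MXI1, TXNIP and BTG1 to stress and growth restraint. ALDOC, PFKFB4, PGK1, PGM1, TPI1 and SLC2A3 belong to glycolysis. EGLN1 and EGLN3 belong to oxygen sensing, P4HA2 and PLOD1 to collagen hydroxylation and crosslinking, and VEGFA to secreted angiogenic factors. BNIP3, BNIP3L, FAM162A and MTFP1 belong to mitophagy and autophagy, and KDM3A to the Jumonji histone demethylases. PDK1 belongs to the citric acid cycle list, and IGFBP3 and IGF1R to the list of insulin-like growth factors. Those lists are therefore not independent of the selection either. Of the 31 NB-hypo genes tested, 26 were higher in all 5 pairs, against 2.68% of all genes. In limma 2 passed with 5 pairs and 7 with 4, and the mean log2 changes ran from 0.37 to 2.40. Their relative median was 1.31 in ACN and in SHEP-2, 0.91 in SHEP21N without overexpression, 0.73 in GI-ME-N and 0.67 in SHEP21N with overexpression. At least 2-fold higher were 25 of the 31 in SHEP-2, 18 in ACN, 14 and 10 in SHEP21N without and with overexpression and 8 in GI-ME-N. Over all genes tested, the share at least 2-fold higher was 7.06% in SHEP-2, 7.37% in ACN, 3.33% and 14.1% in SHEP21N without and with overexpression and 2.66% in GI-ME-N.

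**Figure D3:**
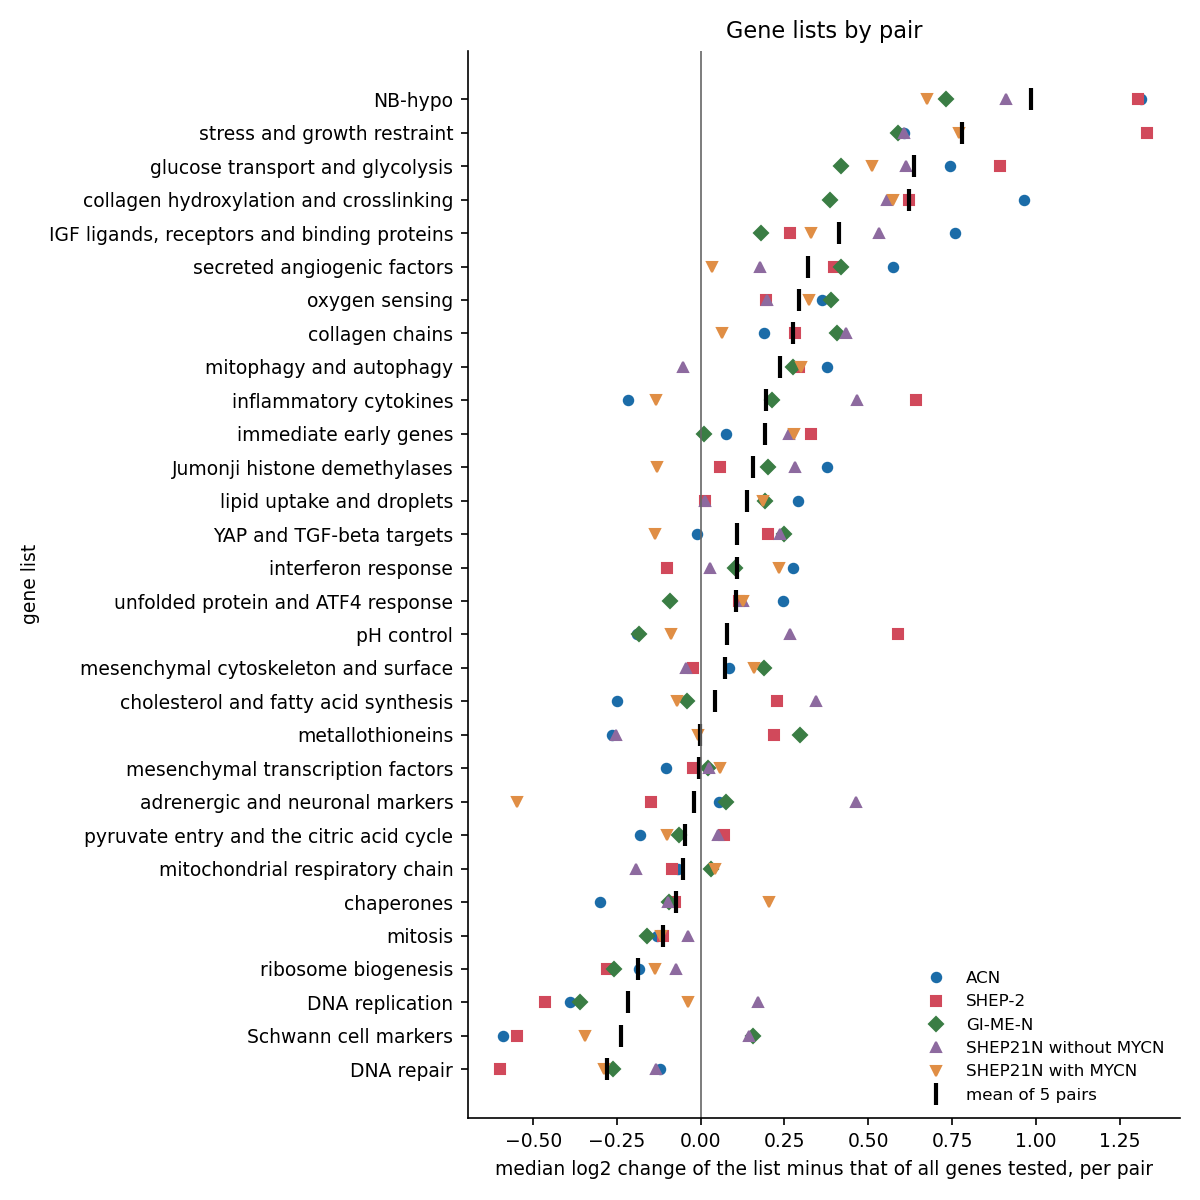
Median log2 change of each gene list minus the median of all genes tested (horizontal axis), 1 symbol for each of the 5 pairs and a bar for their mean. The NB-hypo list (0.67 to 1.31), stress and growth restraint (0.59 to 1.33) and glycolysis (0.42 to 0.89) lay above 0 in each pair, and DNA repair (-0.60 to -0.12) below it. Stress and growth restraint, glycolysis, oxygen sensing, collagen hydroxylation and crosslinking, and secreted angiogenic factors share genes with NB-hypo. So do mitophagy and autophagy, Jumonji histone demethylases, the citric acid cycle and insulin-like growth factors.

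The pairs were weakly correlated with each other. The correlation of log2 changes across the 11386 genes lay between -0.062 and 0.092 for 9 of the 10 pairs of lines, and was 0.24 between the SHEP21N cells without and with overexpression. These values are across genes, which are not independent replicates, and each line enters 4 of them. Noise of single arrays and responses of single lines cannot be told apart in them. Among 7699 genes with a mean signal of at least 400, 1270 were at least 2-fold off the median change of the other 4 pairs in SHEP21N with overexpression, 1095 of them above it. The counts were 610 in ACN, 595 in SHEP21N without overexpression, 324 in SHEP-2 and 280 in GI-ME-N. With 1 array per line and condition, these counts come from no test.

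In SHEP21N with overexpression the genes farthest off were STIP1, CDC37, PDAP1, COL6A2 and BTBD2, with log2 changes of 6.11 to 6.68. STIP1 and CDC37 are cochaperones of HSP90 and COL6A2 is a collagen chain. The signal of STIP1 was 56.3 in normoxia and 4964 in hypoxia, and that of COL6A2 30.3 and 2482, while a second COL6A2 probeset changed by 0.86. The normoxic array is the one with the 3'/5' ratios of 67.3 and 94.0, and the part of these ratios in the values was not tested. On the same array ACTB, measured by its own probeset, was 19708 against 48932 in hypoxia, a change of 1.53 that no other line showed (-0.18 to 0.15).

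In ACN, WDR18 and RRP12, both needed for ribosome assembly, had signals of 401 and 283 in normoxia and of 10.7 and 10.2 in hypoxia. MAGEC2, a cancer-testis antigen, went from 259 to 9.57 and the ubiquitin ligase gene RNF216 from 483 to 15.9, whereas TCF4, an E protein, went from 2.77 to 83.5. These are values of 1 probeset each. Over the 5 pairs the RNF216 probeset used had a mean log2 change of -1.05, but its other probesets of like signal had 0.51 and 0.11. For TCF4 the probeset used had 0.86 and the others had -0.84 to 0.092. In GI-ME-N the farthest genes, MAGEA6, CTSH, LINC02381, MAGEB2 and ADGRG6, had a signal of 1.81 to 3.24 in one of the conditions and of at most 110.1 in the other. In SHEP-2 the folate receptor gene FOLR1 went from 6910 to 1480 in signal, a log2 change of -2.13 against 0.18 to 2.08 in the other lines, and at its second, dimmer probeset 4 of the 5 pairs were lower. In SHEP21N without overexpression ETFRF1, of mitochondrial electron transfer, went from 3892 to 636 and POLK, a DNA polymerase that copies past lesions, from 1251 to 209.6.

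**Figure D4:**
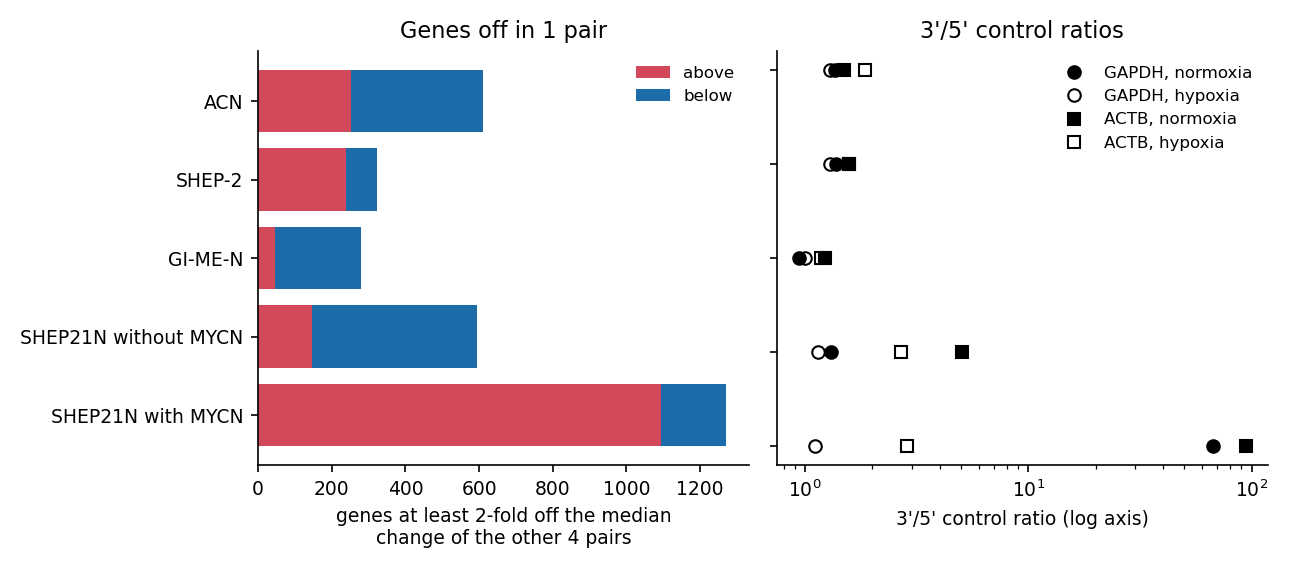
Left, number of genes (of 7699 with a mean signal of at least 400) whose log2 change was at least 1 above or below the median of the other 4 pairs, by line; right, 3'/5' signal ratios of GAPDH and ACTB (log axis) on the 10 arrays. SHEP21N with overexpression had both the highest count (1270) and the highest ratios (67.3 and 94.0, normoxia).

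Whether the change in hypoxia differed between these 5 pairs and the 6 other lines was tested in 1 fit over all 22 arrays. Of 11173 genes, 0 changed more upward in the 5 pairs (0%) and 2 changed more upward in the other lines (0.0179%), RGS4 and CLCN5. At an unadjusted p under 0.05, 658 of the 11173 genes differed, a limit that some genes pass by chance alone. In the same fit, 13 genes rose (0.116%) and 5 fell (0.0448%) in the 5 pairs, and 51 rose (0.456%) and 20 fell (0.179%) in the other 6 lines. Among these, the arrays labelled SK-N-SH had MYCN signals of 33504 and 35223, although this line is known as not amplified for MYCN, and in normoxia their log2 signals correlated with those of IMR-32 and GI-LI-N at r = 0.953 and 0.943 across 11173 genes, and with those of the SHEP lines at 0.551 to 0.596. IMR-32 and GI-LI-N correlated at 0.947, so that these 3 lines were also averaged into 1.

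RGS4 encodes a GTPase-activating protein that ends signalling by G protein-coupled receptors, and its protein is known to be degraded in the presence of oxygen. In hypoxia and normoxia its signals were 8115 and 12056 in SHEP-2, 19113 and 20847 in GI-ME-N, 4246 and 4338 in SHEP21N without overexpression, 1585 and 2847 in SHEP21N with overexpression, and 10.9 and 12.5 in ACN. At this probeset, the brightest of 3, 4 of the 5 lines thus had a bright signal in normoxia and none had more in hypoxia. In the other lines it went from 1269 to 10893 in GI-LI-N, from 1406 to 12957 in IMR-32, from 6087 to 35009 in LAN-1, from 9042 to 21673 in SK-N-BE2(C), from 3719 to 32859 in SK-N-F1 and from 639 to 3206 in SK-N-SH. The log2 changes were -0.63 to -0.068 in the 5 pairs and 1.14 to 3.12 in the 6 other lines, without overlap, and the difference was -2.89 ± 0.30 (SE, 5 and 6 lines; limma adjusted p = 0.001).

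Leaving out any of the 11 lines in turn gave differences of -3.17 to -2.77, with adjusted p from 2.1e-06 to 0.0103. Averaging the 3 SHEP lines into 1 gave -2.86 (adjusted p = 0.0159), averaging SK-N-SH, IMR-32 and GI-LI-N -2.72 (0.0266), and leaving out SK-N-SH -2.90 (0.00607). At a second RGS4 probeset the changes also did not overlap (-0.81 to 1.19 against 1.45 to 4.19). At the remaining probeset they did (-0.58 to 2.05 against 1.35 to 3.91), because of ACN, where the signal was 7.67 in normoxia and 32.4 in hypoxia. At both of these probesets SHEP21N without (0.11 and 0.70) and with overexpression (1.19 and 0.98) were higher in hypoxia. The 5 pairs and the other lines differ in MYCN signal and marker genes alike, and by their description in growth form, which the labels do not give. These cannot be told apart in this comparison.

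CLCN5 had changes of -1.54 to -0.87 in the 5 pairs and of 0.089 to 0.75 in the other lines, and the difference was -1.58 ± 0.24 (SE, 5 and 6 lines; limma adjusted p = 0.0458). Its signals were low, 75.8 to 905 on the 10 arrays, and with the mean of its probesets the difference was -0.80 (adjusted p = 0.793). With SK-N-SH, IMR-32 and GI-LI-N averaged it was -1.50 (adjusted p = 0.438). The call was lost without 10 of the 11 lines in turn (adjusted p 0.0854 to 0.185), and kept without ACN (0.0244). The difference itself was -1.67 to -1.50 with 1 line left out. Without ACN PAX5 was called too. This transcription factor gene of B cells changed more upward in the 4 pairs left (difference 1.91, adjusted p = 0.0244) and was not called with all lines (1.58, adjusted p = 0.753). Next in order, and not past the limit, were 2 enzymes that hypoxia is known to induce. P4HA1, a collagen prolyl hydroxylase subunit, changed by 0.73 in the 5 pairs and by 2.09 in the other lines (adjusted p = 0.132). PFKFB3, which speeds glycolysis, changed by 0.022 and 1.89 (adjusted p = 0.185), with ranges of -0.32 to 0.40 and of 0.60 to 2.92. Without SK-N-BE2(C) PFKFB3 was called (difference -2.13, limma adjusted p = 0.0157).

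**Figure D5:**
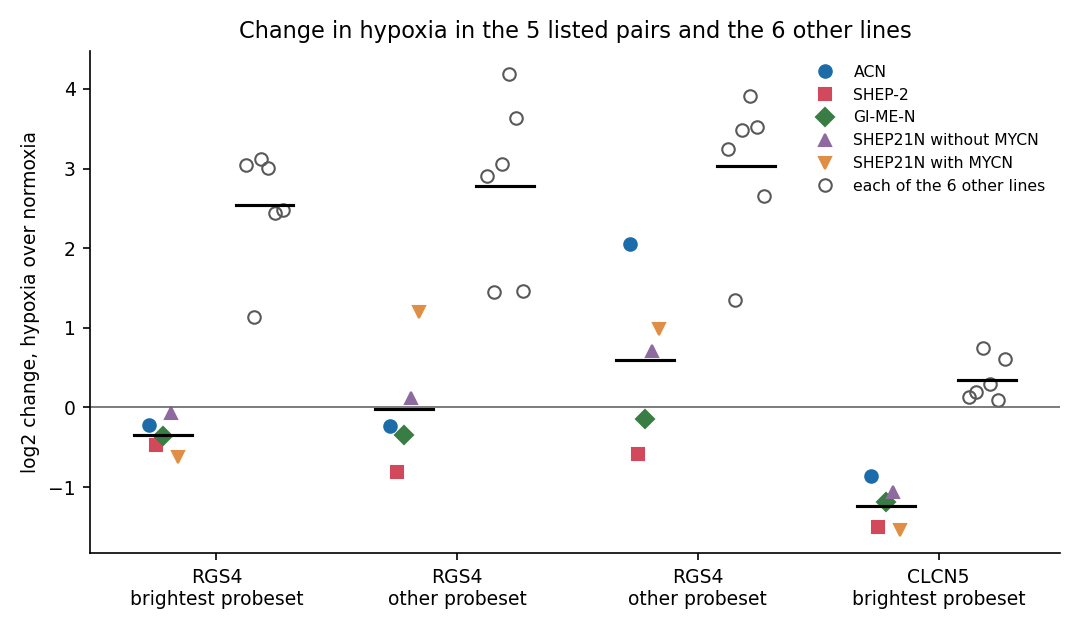
Log2 change in hypoxia over normoxia (vertical axis) of RGS4 at its 3 probesets and of CLCN5 at its brightest one, with filled symbols for the 5 pairs, open circles for the 6 other lines and bars for the means. At the brightest RGS4 probeset the 5 pairs lay between -0.63 and -0.068 and the other lines between 1.14 and 3.12.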

How the data were processed

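The series holds 22 arrays (Affymetrix HG-U133 Plus 2.0) of 11 neuroblastoma cell lines in normoxia and hypoxia, of which the 10 arrays of the 5 pairs named above carry the results. The intensity values are MAS5 signals on a linear scale, deposited by the authors and, per their methods, scaled to an average of 500 (MAS5 is also named in the submitters' processing notes, without a version). Background-corrected probe values were not used here, so the background correction could not be varied.

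Analyses used log2 of the signal over the median of its array. Of 54675 probesets, 41091 name 1 gene, and each gene was represented by the one whose mean log2 over all 22 arrays was highest, which need not be the brightest on the 10 arrays. Genes with a mean signal of at least 100 (geometric mean) were tested with limma (version 3.58.1 in R 4.3.3), blocking on the line, with eBayes trend and Benjamini-Hochberg adjustment, at an adjusted p under 0.05. Both arrays of a pair come from the same line, so the labels pair them. The difference from the other lines was fitted on all 22 arrays. The script was tested on simulated data with known changes. The number of arrays, 1 for each line and condition, limits the precision. SE and p-values rest on the spread between lines, 3 of which are related, after eBayes drew it toward that of genes of like signal.

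Genes were named if they were ALDOC, ANKRD37 or VIM, were called, moved at least 1.5-fold in all 5 pairs, were among the 4 members of a list with the smallest adjusted p, were controls (MYCN, HIF1A, EPAS1, GAPDH, ACTB), were among the 5 genes farthest from the other pairs in a line, or led the difference between lines. Other genes, such as TMEM45A, were named after their values were seen. The cell lines and gene lists were chosen with earlier results of these data known. Alternatives concerned the samples, the scaling, the filter on dim genes, the probeset rule and the test. Promoters came from RefSeq (GRCh38.p14), matched by symbol for 9369 of the 11386 genes tested. Tumor profiles of the study were not analysed here. Figures were drawn with matplotlib 3.10.9.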

Additional observations from a re-analysis of the deposited data

Results flagged for a closer look

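Among 70 results with 1 value for each of the 5 pairs, 7 had a pair far from the other 4 by Dixon's test, which chance gives in about 1 of 20. The change of ACTB, the cytoskeletal actin often used as a control, was 1.53 in SHEP21N with overexpression and -0.18 to 0.15 in the other lines. The same line stood apart in normoxia in the 3'/5' ratio of GAPDH (67.3, others 0.939 to 1.37) and in that of ACTB (94.0, others 1.23 to 5.05). NDRG1 changed by 3.74 in SHEP-2 and by 1.66 to 2.22 elsewhere. GI-ME-N stood apart in CRYGC (-2.75, others -0.94 to -0.64), in ENPP2 (-1.75, others -0.71 to -0.59) and in the median of the genes of the unfolded protein and ATF4 response (-0.33, others 0.12 to 0.20). Relative to all genes of the same pair, the last value was -0.092 in GI-ME-N and 0.12 to 0.24 in the other lines.

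The change in hypoxia differed between the 5 pairs and the other 6 lines for RGS4 (difference of log2 changes -2.89, limma adjusted p = 0.001) and for CLCN5 (-1.58, adjusted p = 0.0458). At the probesets used, both were lower in hypoxia in 5 of 5 pairs and higher in 6 of 6 other lines. Other probesets differed: RGS4 was higher in both SHEP21N pairs at 2 probesets, and CLCN5 was higher in 4 of the 5 pairs at 1.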

How the results depend on the processing

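The number of genes called higher was 0 to 9 when 1 line was left out, 9 without SHEP21N with overexpression and 10 without both SHEP21N pairs, an alternative chosen after seeing the data. It was 13 with all 22 arrays in 1 fit, 4 without a filter, with signals below 50 set to 50 or at an adjusted p under 0.1, and 0 with the mean of all probesets, without the trend and by the methods' t-test, taken as paired and without their 2-fold selection. Without the replicate block, that is without pairing the arrays of a line, 0 genes were called higher and 0 differed between the 5 pairs and the other lines. ANKRD37 and NDRG1 each stayed past the limit in 10 of 18 alternatives, with adjusted p up to 1 without pairing. These 18 count the fit without SHEP21N with overexpression both by itself and among the lines left out in turn, and both genes passed in it.

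The number called lower was 0 to 1 when 1 line was left out, 1 without SHEP21N with overexpression and 5 with all 22 arrays. The number at least 1.5-fold higher in all pairs was 23 to 47 with 1 line left out, 28 without SHEP21N with overexpression, 52 with the SHEP lines averaged, 65 without both SHEP21N pairs, 54 without a filter and 4 at 2-fold. The number at least 1.5-fold lower was 6 to 10 with 1 line left out, 10 without SHEP21N with overexpression, 21 with the SHEP lines averaged, 49 without both SHEP21N pairs, 5 with values as deposited, 45 without a filter, 1 with a mean signal of at least 200 and 0 at 2-fold. Fewer pairs make a fold in every pair easier to meet.

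The number of genes that differed from the other lines was 1 to 3 with 1 of the 11 lines left out in turn. It was 1 without SHEP21N with overexpression, with the SHEP lines or with SK-N-SH, IMR-32 and GI-LI-N averaged, with values as deposited, after quantile normalization, without a filter and with the mean of all probesets. In these averaged, rescaled or refiltered alternatives the gene was RGS4.

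List medians are given here as medians of the mean changes, not relative to all genes. Of 448 recomputed ones, 429 moved by less than the spread between pairs, where those without SHEP21N with overexpression are again counted under both names. Oxygen sensing, at 0.26 with all pairs, was 0.089 to 0.34 with 1 line left out, 0.13 without a filter and 0.54 with the mean of all probesets. Secreted angiogenic factors (0.34) were at 0.25 to 0.59 with 1 line left out, at 0.59 without SHEP21N with overexpression, 0.62 without both SHEP21N pairs and 0.57 with the mean of all probesets. Collagen chains (0.11) were at 0.28 without SHEP21N with overexpression and 0.32 with the SHEP lines averaged. The interferon response (-0.12) was at -0.12 to 0.22 with 1 line left out, 0.21 with the SHEP lines averaged, 0.12 with signals below 50 set to 50, 0.057 with a mean signal of at least 200 and 0.24 with the mean of all probesets. Mesenchymal transcription factors (-0.13) were at 0.033 without both SHEP21N pairs and DNA repair (-0.41) at -0.22 with the mean of all probesets. ACTB was at -0.0089 to 0.42 with 1 line left out, -0.0089 without SHEP21N with overexpression and -0.041 without both SHEP21N pairs, HIF1A at -0.19 to 0.034 with 1 line left out and 0.14 without both SHEP21N pairs, and EPAS1 at 0.15 with the mean of all probesets. With GCGTG added to the motif, 83.3% of the promoters held a match, and 63.6% of all promoters did. The cause of these shifts was not tested. Signals below about 100 are close to the background of the array and limit changes such as those of CRYGC, ENPP2 and DEPP1.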
